A study of Ovis aries with 8 samples.

Results

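Amino acid transporter transcripts were examined in pancreatic islets of fetal sheep after a week of norepinephrine. The genes were taken by name from the table of all transcripts: the SLC1, SLC7, SLC38, SLC36 and SLC43 families, the amino acid carriers SLC6A14 to SLC6A20, and the heavy chains SLC3A1 and SLC3A2, with SLC7A2 left out. This took 40 of 25000 rows. One of them, SLC7A6OS, is named for its place beside SLC7A6 and is no transporter, so 39 transporters are described. The rule uses names alone. SLC1A1, SLC1A2, SLC1A3, SLC7A3, SLC7A13, SLC38A3 and SLC6A18 are not analysed here.

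Amino acids reach islet cells through carriers that differ in substrate and coupling. Sodium-coupled carriers of the SLC1, SLC38 and SLC6 families can concentrate amino acids in the cell, whereas the SLC7 light chains mostly exchange one amino acid for another and need a glycoprotein heavy chain, SLC3A2 or SLC3A1, to reach the surface. Some carriers of the SLC36 and SLC38 families work on lysosomes, where amino acid export and sensing meet the growth kinase mTORC1. In islets, amino acids serve as secretagogues for insulin and glucagon, and in the fetus they are a main fuel for growth.

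Islets came from near-term singleton fetuses of Columbia-Rambouillet crossbred ewes and were picked by hand. The norepinephrine group (4 fetuses) was infused intravenously for 7 days, at 1 µg/min on day 1, 2 µg/min on days 2 to 4 and 4 µg/min on days 5 to 7. The control group (4 fetuses) received the diluent alone, ascorbic acid in saline. At 137 to 139 days of gestation the norepinephrine fetuses weighed 2.8 to 3.7 kg, and at 139 to 140 days the controls weighed 3.6 to 5 kg (exact two-sided permutation p = 0.0571 for weight and 0.0857 for age, where 0.0286 is the smallest possible). Control 2 and norepinephrine 3 were female. Transcript levels come from RNA sequencing and are in FPKM, fragment counts scaled by transcript length and by library size, so levels can be compared between genes. Values with ± are means with SDs over n = 4 animals, and differences are norepinephrine minus control in log2(FPKM + 1).

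Summed FPKM ran from 768021 to 1112624 per animal. It was 981583 or more where the animal number in the labels starts with 09 and 796149 or less where it starts with 10, a prefix whose meaning is not given there. Animals numbered 09 were norepinephrine 1, 3 and 4 and control 2. Animals numbered 10 were norepinephrine 2 and controls 1, 3 and 4. Prefix and treatment therefore overlap in part, and values within each prefix are given for the tested genes described in full. Islet genes were abundant in every animal: the summed level of 10 alpha-cell markers, led by GCG, was at least 1562 FPKM, that of 9 beta-cell markers, led by UCN3 and PDX1, at least 1236, and that of 5 delta-cell markers, led by RBP4 and SST, at least 4426. Of those, IAPP was listed at 0 in all animals, and INS and MAFA are not analysed here. Means were higher with norepinephrine for 7 of 9 tested alpha-cell markers (median 0.46), against 52.6% of all tested genes. The same held for 5 of 7 beta-cell markers (median 0.21) and 2 of 5 delta-cell markers (median -0.14). Within prefixes 09 and 10 the medians were 0.02 and 0.85 for alpha, 0.011 and 0.14 for beta, and 0.19 and -0.42 for delta. The delta-cell median joins genes of opposite sign. SST averaged 1142 ± 717.4 FPKM after norepinephrine against 392.7 ± 368.7, with overlapping groups. Its difference was 1.73 (SE 0.67, limma unadjusted p = 0.0286, adjusted p = 0.628), and 2.05 and 2.33 within prefixes 09 and 10. PRG4 was higher as well (1.01, SE 1.06). RBP4, the most abundant of the list, was lower (-0.39, SE 0.34), as were GHSR and LEPR. Other cell types were present as well. The 14 acinar markers that were found summed to 151.5 to 1181 FPKM with norepinephrine and 151.7 to 241.3 in controls, with none of them at 0 in all animals, and all 10 that were tested had higher means with norepinephrine (median 1.15, with 1.30 within prefix 09 and -0.70 within prefix 10). The 8 duct markers found summed to 391.8 to 705.8 and 326.3 to 418.2 FPKM, norepinephrine before control, and 5 of 7 tested had higher means (median 0.91, with 0.58 and 0.12 within prefixes 09 and 10). The 9 endothelial markers summed to 104.4 to 212.8 and 148.7 to 212.2 FPKM, with lower means for 8 of 9 (median -0.23, with -0.29 and -0.62 within the prefixes). The 9 mesenchymal markers summed to 2029 FPKM in norepinephrine 4, 380.9 to 779.0 in the other treated animals and 524.6 to 826.8 in controls. Of these, 4 of 9 had higher means (median -0.099, with 0.43 and -0.72 within the prefixes). The 9 leukocyte markers summed to 133.4 to 218.6 and 134.8 to 192.2 FPKM. None of these marker genes passed after adjustment (limma). Their part in the transporter values was not tested, and fewer cells of a type and less RNA per cell cannot be told apart in these bulk samples.

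Of the 39 transporters, 29 had a mean of at least 1 FPKM over the 8 animals and were tested with all other genes. The heavy chain SLC3A2 stood far above the rest, with a mean of 205.6 FPKM that placed it at percentile 95.4 of the tested genes. The next members lay close together: the leucine exchangers SLC7A8 at 49.7 and SLC7A5 at 47.8, the uniporter SLC43A2 at 47.4 and the glutamine carrier SLC38A2 at 46.6. The animals' values overlapped among these 4, whose order does not hold beyond the spread. SLC1A5, SLC38A5, SLC38A4, SLC38A10 and SLC6A17 followed, at 38.7, 34.5, 30.4, 26.4 and 20.1 FPKM. All 39 together summed to 700.7 ± 100.1 FPKM with norepinephrine and 650.7 ± 50.9 in controls. The 10 members under the abundance limit made up 0.443% of the sum over all animals.

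**Figure D1:**
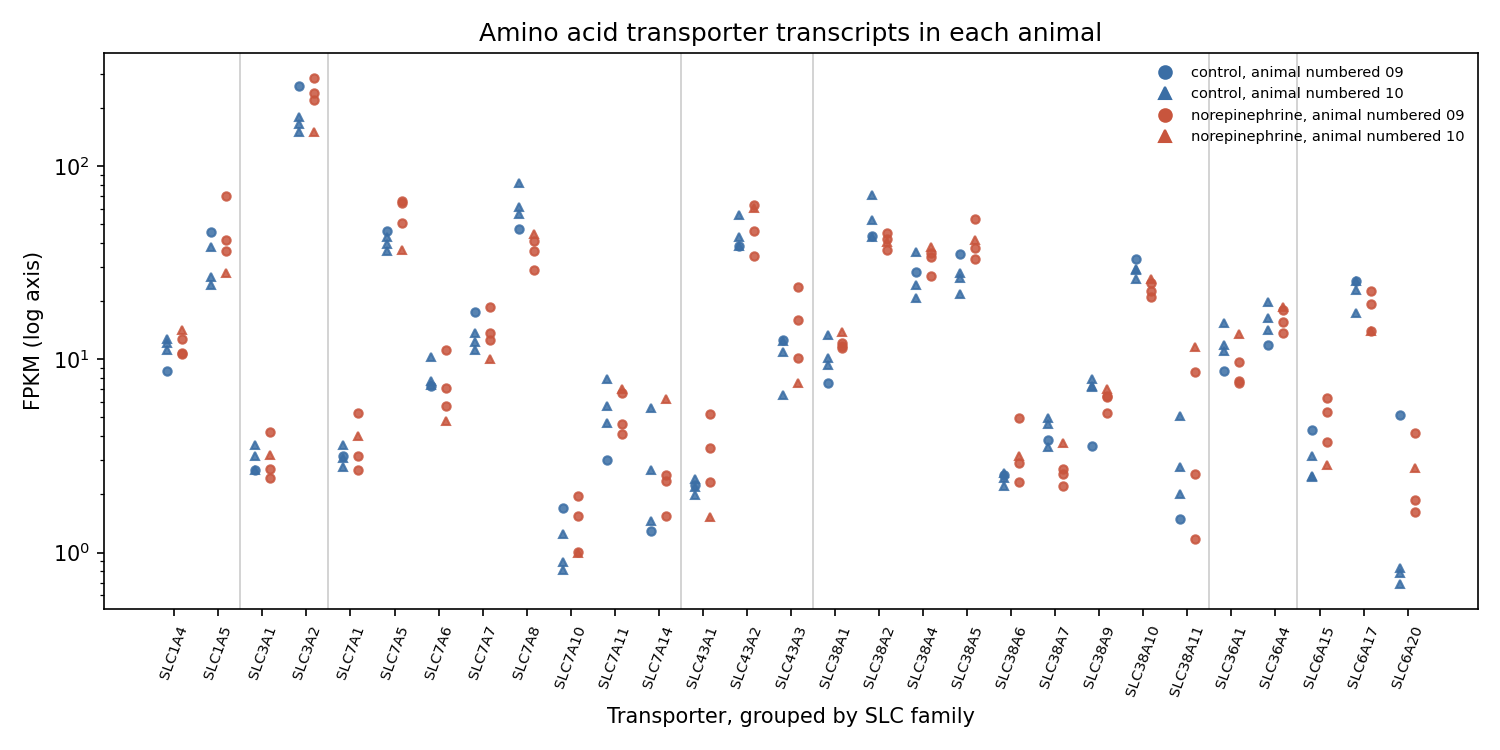
FPKM (log axis) of the 29 transporters with a mean of at least 1, by family, one point per animal, controls in blue and norepinephrine in red, with circles for animals numbered 09 and triangles for 10. SLC3A2 stands above all others in every animal, and the ranges of the 2 groups overlap for every gene plotted except SLC7A8.

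No transporter passed the test of norepinephrine against control after adjustment over all genes (0 of 29, limma), where 0% of the 13252 tested genes did. Among transporters the adjusted p was 0.523 or higher. Before adjustment, 4 of 29 transporters were under 0.05, against 7.36% of all tested genes: SLC38A5 with a higher mean after norepinephrine, and SLC7A8, SLC38A7 and SLC38A10 with lower means. The groups did not overlap for 1 transporter, SLC7A8, against 4.23% of all tested genes. Higher means were found for 21 of the 29, with a median difference of 0.16, where 52.6% of all genes had higher means and the median was 0.017. With equal library totals, which moved the median of all genes to -0.12, 16 of 29 transporters and 30.4% of all genes were higher. Under both scalings 20 of the 29 lay above the median of all genes. Rescaling shifts all genes nearly alike, so this count could hardly change and is no separate support. With the number prefix in the model, 18 of 29 were higher, against 47.2% of all genes, and 4 had an unadjusted p under 0.05 against 11.7% of all genes. Those 4 were SLC7A8, SLC38A10, SLC38A1 and SLC6A17, so SLC38A5 and SLC38A7 were no longer among them.

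The medians of the families, given without a test, moved when single animals were left out. The SLC6 median of 3 genes was 0.42, and 0.27 without norepinephrine 4. For the 3 SLC43 genes the median was 0.29, with 0.069 without norepinephrine 4 and 0.50 without norepinephrine 2. The 9 tested SLC38 genes had 0.28, and 0.14 without norepinephrine 4 or 0.16 without control 2. Medians of the 2 tested SLC1 genes, both SLC3 genes and the 8 tested SLC7 genes were 0.22, 0.13 and 0.11, and leaving out 1 animal gave 0.12 to 0.28, 0.048 to 0.21 and 0.04 to 0.15. The SLC36 median of 2 genes was -0.091 and ran from -0.21 without control 2 to 0.032 without control 1. With the prefix in the model the medians of SLC6, SLC43, SLC38, SLC1, SLC3, SLC7 and SLC36 were 0.12, 0.078, 0.28, 0.14, -0.015, 0.043 and 0.14 in that order, so those of SLC3 and SLC36 turned sign.

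**Figure D2:**
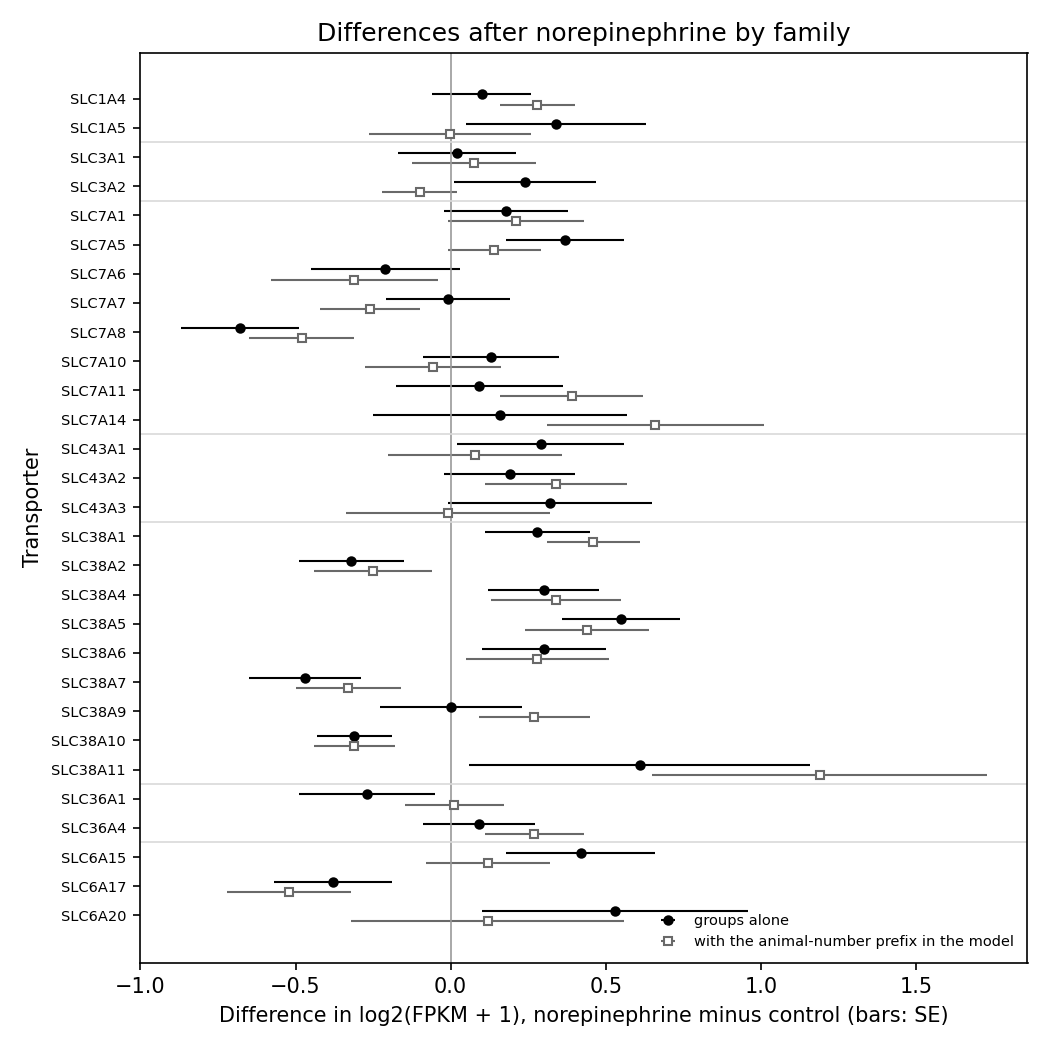
Difference in log2(FPKM + 1) between norepinephrine and control for each of the 29 transporters, with bars for 1 SE, from the comparison of groups alone (black) and with the animal-number prefix in the model (grey squares). SLC7A8 lies farthest to the left at -0.68 and SLC38A11 farthest to the right at 0.61 with an SE of 0.55 among the black points, and none passed after adjustment.

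The transporter with the lowest p was a light chain of SLC3A2. SLC7A8, which encodes the neutral amino acid exchanger LAT2 (chromosome 7, 21302166 to 21353769 on Oar_v3.1), stood at 81.6, 47.0, 61.3 and 56.5 FPKM in controls 1 to 4. In norepinephrine animals 1 to 4 it stood at 36.5, 44.3, 29.1 and 40.8 FPKM. Every treated animal thus lay below every control. The group values were 37.7 ± 6.56 and 61.6 ± 14.6 FPKM, a difference of -0.68 (SE 0.19, limma unadjusted p = 0.00578, adjusted p = 0.523), which missed the threshold. It was -0.41 within prefix 09 and -0.56 within prefix 10. A model that also held the prefix gave -0.48 (limma unadjusted p = 0.0246). Norepinephrine 2, at 44.3 FPKM of SLC7A8, had a summed acinar level of 151.5 FPKM, close to the 151.7 of control 3, and the other treated animals had 434.6 to 1181. Single acinar genes in norepinephrine 2 went both ways, so the sum does not place its acinar content. CPB1 (58.4 FPKM) and CELA1 (14.0) lay above all controls, and CPA1 (40.2) and CLPS (9.08) lay below all controls. The part of acinar content in the SLC7A8 values was not tested.

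SLC7A5, which encodes LAT1, another leucine exchanger on SLC3A2 (chromosome 14, 12801358 to 12826768), had a higher mean that did not reach the threshold. It stood at 36.1, 46.1, 42.7 and 39.6 FPKM in controls 1 to 4 and at 50.8, 36.9, 64.3 and 66.1 in norepinephrine animals 1 to 4. The 3 treated animals numbered 09 lay above all controls, and norepinephrine 2 lay among the controls. The difference was 0.37 (SE 0.19, limma adjusted p = 0.695), and it was 0.37 within prefix 09 and -0.090 within prefix 10.

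The ratio of SLC7A5 to SLC7A8, which does not depend on how libraries are scaled, was computed after these values were seen and is given without a test. It was 0.442, 0.981, 0.697 and 0.700 in controls 1 to 4 and 1.39, 0.833, 2.21 and 1.62 in norepinephrine animals 1 to 4. SLC7A8 was the more abundant of the pair in every control, and SLC7A5 in every treated animal but norepinephrine 2. Within each prefix the ratios of treated animals lay above those of the controls, although the ratio of norepinephrine 2 lay below that of control 2.

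**Figure D3:**
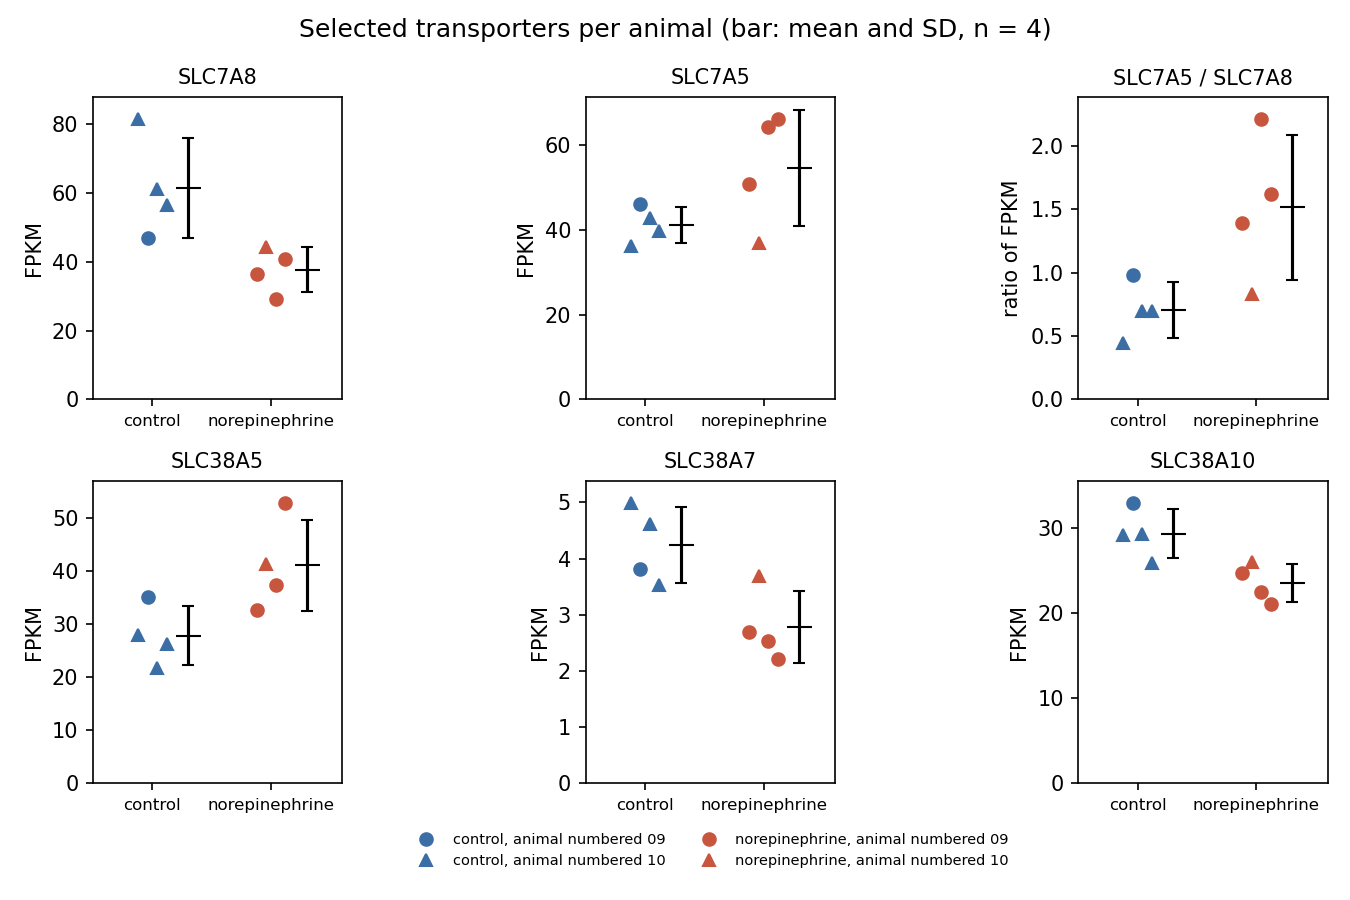
FPKM per animal of SLC7A8, SLC7A5, SLC38A5, SLC38A7 and SLC38A10, and the ratio of SLC7A5 to SLC7A8, with circles for animals numbered 09, triangles for 10, and bars for the mean and SD (n = 4). All treated animals lie below all controls for SLC7A8, and the groups overlap in the other panels.

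The remaining SLC3A2 partners differed by less than their spread. SLC7A7 and SLC7A6, the y+L exchangers of cationic for neutral amino acids, stood at 13.7 ± 3.57 and 13.7 ± 2.77 FPKM and at 7.22 ± 2.83 and 8.19 ± 1.45, norepinephrine before control. SLC7A7 was 12.6, 10.0, 13.6 and 18.6 FPKM in norepinephrine animals 1 to 4 and 13.7, 17.5, 12.3 and 11.2 in controls 1 to 4, a difference of -0.0094 (SE 0.20, limma adjusted p = 0.992). The SLC7A7 difference was -0.24 within prefix 09, -0.28 within prefix 10 and -0.26 with the prefix in the model. SLC7A11, the cystine and glutamate exchanger xCT that feeds glutathione synthesis, stood at 5.61 ± 1.45 and 5.34 ± 2.06, and SLC7A10, the small neutral exchanger Asc-1, at 1.38 ± 0.471 and 1.16 ± 0.402. The locus of SLC7A10 overlaps that of LRP3, and no source states whether the libraries kept strand, so its reads may be mixed.

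Because light chains share SLC3A2, their make-up was expressed as a percentage of their summed FPKM in each animal. SLC7A8 held 46.6 ± 7.32% of the light-chain sum in controls and 31.9 ± 7.88% with norepinephrine, and SLC7A5 held 31.7 ± 5.32% and 45.0 ± 7.45%. These shares restate the values above, and a lower share of one light chain raises those of the others. Within prefix 09 SLC7A8 held 38.3% in control 2 and 24.3% to 32.7% with norepinephrine. Within prefix 10 SLC7A8 held 44.7% to 56.0% in controls and 42.6% in norepinephrine 2. The sum itself was 131.1 ± 10.2 FPKM in controls and 120.1 ± 17.7 with norepinephrine, and those ranges overlapped. SLC7A8 and SLC7A5 made up most of it in all animals, while the other 4 light chains held 11.3% or less each on average.

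**Figure D4:**
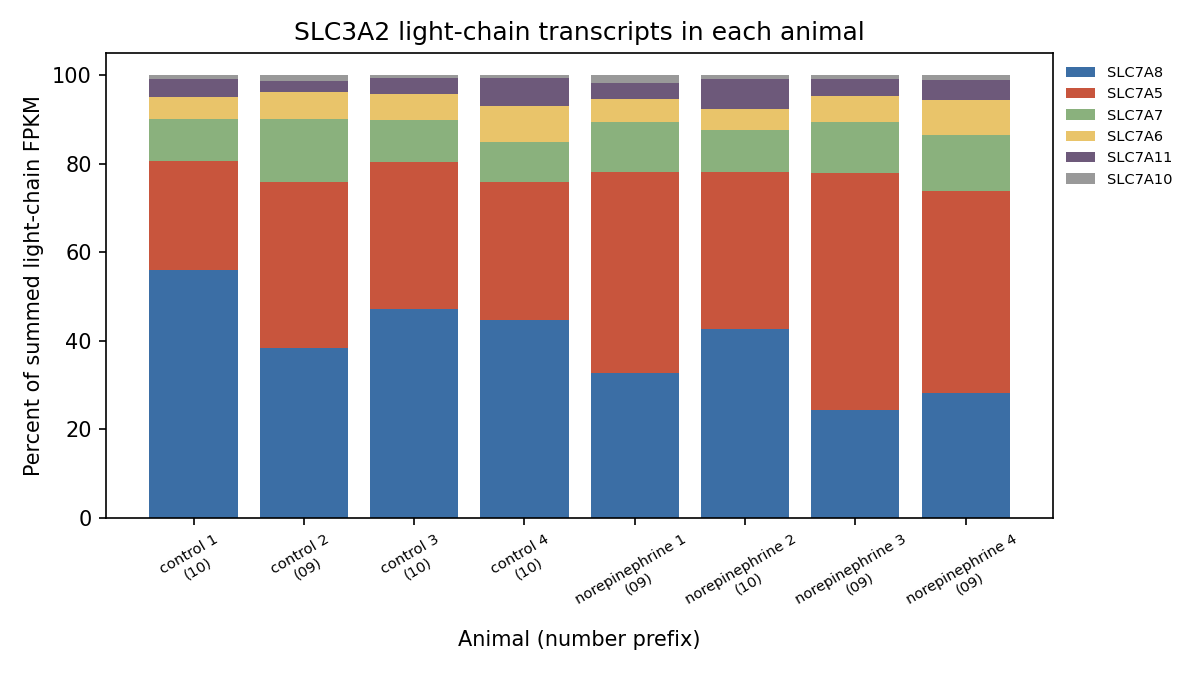
Percentage of the summed FPKM of the 6 SLC3A2 light chains contributed by each, in each animal, with its number prefix in brackets. The SLC7A8 segment spans 38.3% to 56.0% in controls and 24.3% to 42.6% with norepinephrine, and SLC7A5 spans 24.7% to 37.6% and 35.5% to 53.7%.

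The heavy chain SLC3A2, also known as 4F2hc or CD98 (chromosome 21, 40550874 to 40581599), differed with the animal-number prefix. It stood at 165.1, 258.8, 149.8 and 179.3 FPKM in controls 1 to 4 and at 218.9, 149.4, 239.4 and 283.9 in norepinephrine animals 1 to 4. The 4 animals numbered 09 were all above the 4 numbered 10. With treatment in the model it was lower in animals numbered 10 by limma (log2 difference -0.68, SE 0.12, adjusted p = 0.0155), and 1 other transporter, the lysosomal carrier SLC36A1, was higher there (0.57, SE 0.16, adjusted p = 0.0482). These were 2 of 29 transporters, where 16.5% of all tested genes differed between the prefixes. The difference of SLC3A2 between treatments was 0.24 (SE 0.23, limma adjusted p = 0.812), and -0.073 and -0.14 within prefixes 09 and 10.

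SLC3A2 exceeded the sum of its 6 light chains in every animal. The ratio was 1.13, 2.11, 1.16 and 1.42 in controls 1 to 4 and 1.96, 1.44, 2.00 and 1.96 in norepinephrine animals 1 to 4. The other heavy chain, SLC3A1, which carries cystine and dibasic amino acids in kidney and gut with the light chain SLC7A9, was scarce. It stood at 2.67, 2.68, 3.61 and 3.16 FPKM in controls and 2.42, 3.18, 4.18 and 2.70 with norepinephrine (difference 0.021, SE 0.19, limma adjusted p = 0.982, and 0.13 and 0.017 within prefixes 09 and 10). The locus of SLC3A1 overlaps that of PREPL. SLC7A9 reached at most 0.295 FPKM.

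The cationic carriers of the SLC7 family that are not light chains, SLC7A1, SLC7A14 and SLC7A4, were low. SLC7A2 and SLC7A3 are not described here, and the light chains SLC7A7 and SLC7A6 also carry cationic amino acids, at means of 13.7 and 7.70 FPKM. SLC7A1, the arginine and lysine carrier CAT1, is placed on a scaffold outside the numbered chromosomes and averaged 3.77 ± 1.13 FPKM with norepinephrine and 3.14 ± 0.348 without it. The related SLC7A14, found on lysosomes, stood at 3.16 ± 2.09 and 2.76 ± 2.00, and its controls alone ranged from 1.30 to 5.61. SLC7A4 had a mean of 0.894 FPKM, just under the limit of 1, and SLC7A10, just above it, had 1.27.

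System L uniporters of the SLC43 family let branched-chain amino acids leave or enter the cell without exchange. SLC43A2 stood at 56.0, 38.6, 42.8 and 38.3 FPKM in controls 1 to 4 and at 46.2, 60.4, 34.3 and 62.7 in norepinephrine animals 1 to 4 (difference 0.19, SE 0.21, limma adjusted p = 0.835, and 0.26 and 0.41 within prefixes 09 and 10). The lowest animal of all was a treated one, and the groups overlapped throughout. SLC43A3, an equilibrative purine base transporter by function, stood at 16.0, 7.55, 10.1 and 23.7 with norepinephrine and 6.52, 12.6, 10.9 and 12.4 in controls (0.32, SE 0.33, limma adjusted p = 0.827, and 0.30 and -0.31 within the prefixes). SLC43A1 stood at 3.48, 1.53, 2.32 and 5.20 with norepinephrine and at 2.39, 2.23, 1.99 and 2.19 in controls (0.29, SE 0.27, limma adjusted p = 0.801, and 0.49 and -0.33 within the prefixes). Controls of SLC43A1 were thus nearly level, while treated animals lay on both sides of them.

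Among SLC38 carriers of glutamine and small neutral amino acids, both signs occurred, and none passed after adjustment. SLC38A5, the system N carrier SNAT5 (chromosome X, 53311939 to 53323197), stood at 28.0, 35.2, 21.8 and 26.3 FPKM in controls 1 to 4 and at 32.8, 41.4, 37.5 and 52.9 in norepinephrine animals 1 to 4. Only norepinephrine 1 lay below the highest control. The means were 41.2 ± 8.58 and 27.8 ± 5.58, a difference of 0.55 (SE 0.19, limma unadjusted p = 0.0155, adjusted p = 0.574), with 0.19 within prefix 09 and 0.69 within prefix 10. With the prefix in the model the difference was 0.44 (limma unadjusted p = 0.0622).

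System A carriers, which take up alanine and glutamine with sodium, lie beside each other on chromosome 3 and had mean differences of both signs. SLC38A2, the amino-acid-responsive SNAT2, stood at 42.7, 43.4, 52.8 and 70.3 FPKM in controls and at 36.7, 40.2, 44.9 and 42.1 with norepinephrine (difference -0.32, SE 0.17, limma adjusted p = 0.696, and -0.078 and -0.42 within prefixes 09 and 10). Control 4 held its highest value. The ratio of SLC38A5 to SLC38A2, formed after the values were seen and given without a test, was 0.656, 0.810, 0.413 and 0.374 in controls 1 to 4. In norepinephrine animals 1 to 4 it was 0.894, 1.03, 0.837 and 1.26, above every control. SLC38A4, an imprinted carrier in some mammals, stood at 35.9, 28.2, 20.8 and 24.1 in controls and 35.4, 38.2, 26.8 and 33.7 with norepinephrine (0.30, SE 0.18, limma adjusted p = 0.732, and 0.16 and 0.52 within the prefixes). SLC38A1 stood at 12.3 ± 1.14 and 10.1 ± 2.42 FPKM, norepinephrine before control, with a difference of 0.28 that was 0.58 and 0.34 within the prefixes and 0.46 with the prefix in the model (limma unadjusted p = 0.0166). The gap between SLC38A2 and SLC38A1 is 46.4 kb and that between SLC38A4 and SLC38A2 is 367.6 kb, so means on both sides of 0 stood within one neighbourhood. On chromosome 7, SLC7A7 lies 268.3 kb beyond SLC7A8, with a difference near 0 (-0.0094) where that of SLC7A8 was -0.68.

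SLC38A7, which exports glutamine from lysosomes (chromosome 14, 25851222 to 25860809), stood at 4.99, 3.82, 4.61 and 3.53 FPKM in controls and at 2.69, 3.69, 2.54 and 2.22 with norepinephrine. Norepinephrine 2 alone reached into the control range. The difference was -0.47 (SE 0.18, limma unadjusted p = 0.0275, adjusted p = 0.623), with -0.47 and -0.19 within prefixes 09 and 10. With the prefix in the model it was -0.33 (limma unadjusted p = 0.0925). SLC38A10 (chromosome 11, 50597855 to 50636930) stood at 29.1, 32.9, 29.3 and 25.9 in controls and at 24.7, 26.0, 22.5 and 21.0 with norepinephrine. The groups met only where norepinephrine 2 and control 4 lay almost level. Its difference was -0.31 (SE 0.12, limma unadjusted p = 0.0346, adjusted p = 0.646), with -0.52 and -0.11 within the prefixes. For SLC38A7 and SLC38A10 alike, the unadjusted p was at or above 0.05 in 5 of the 8 fits that left out 1 animal.

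SLC38A9, the lysosomal arginine sensor of mTORC1, averaged 6.27 ± 0.716 FPKM with norepinephrine and 6.48 ± 1.98 without it. SLC38A6 stood at 3.33 ± 1.13 and 2.44 ± 0.167. SLC38A11 varied most of the family, from 1.17 to 11.6 FPKM with norepinephrine and 1.49 to 5.09 in controls, and its difference of 0.61 had an SE of 0.55. The difference of SLC38A11 was 0.76 within prefix 09 and 1.62 within prefix 10.

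In the SLC36 family, SLC36A1 is a proton-coupled carrier that exports small amino acids from lysosomes. SLC36A4 stood at 13.6, 18.7, 17.9 and 15.6 FPKM in norepinephrine animals 1 to 4 and at 19.7, 11.9, 14.2 and 16.4 in controls (difference 0.092, SE 0.18, limma adjusted p = 0.910, and 0.37 and 0.17 within prefixes 09 and 10). SLC36A1 stood at 7.50, 13.5, 9.64 and 7.74 with norepinephrine and at 15.4, 8.64, 11.9 and 11.0 in controls (-0.27, SE 0.22, limma adjusted p = 0.777). Both ranges overlapped, and within the prefixes SLC36A1 differed by -0.061 and 0.085. SLC36A2 was under the limit, at 0.398, 0.329, 0.304 and 0.326 FPKM with norepinephrine and 0.405, 0.228, 0.0628 and 0.136 in controls.

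Of the SLC1 family the neutral carriers SLC1A5 and SLC1A4 had means of 38.7 and 11.6 FPKM, at percentiles 73.2 and 42.3 of the tested genes. The glutamate carriers found were under the abundance limit. SLC1A5, the glutamine carrier ASCT2, stood at 41.4, 27.8, 36.5 and 69.8 FPKM in norepinephrine animals 1 to 4 and at 24.2, 45.3, 26.6 and 38.2 in controls (difference 0.34, SE 0.29, limma adjusted p = 0.785). Norepinephrine 4 held the highest value, and the difference was 0.060 and -0.064 within the prefixes. SLC1A4, the serine and alanine carrier ASCT1, stood at 10.6, 14.1, 12.7 and 10.8 with norepinephrine and 12.7, 8.70, 12.2 and 11.2 in controls (0.10, SE 0.16, limma adjusted p = 0.888, and 0.35 and 0.21 within the prefixes). SLC1A7 was listed at 0.205, 0.164, 0.365 and 0.330 with norepinephrine and 0.199, 0.0736, 0.226 and 0.489 in controls. SLC1A6 was listed at 0 in all animals but norepinephrine 3, where it was 0.0187 FPKM.

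Of the SLC6 amino acid carriers, SLC6A17, a vesicular neutral amino acid carrier of neurons (chromosome 1, 86624899 to 86660561), was the most abundant. It stood at 17.3, 25.3, 22.8 and 25.3 FPKM in controls 1 to 4 and at 14.0, 14.0, 22.5 and 19.2 in norepinephrine animals 1 to 4. Norepinephrine 1 and 2 lay below all controls, and norepinephrine 3 and 4 lay within the control range. The difference was -0.38 (SE 0.19, limma unadjusted p = 0.080, adjusted p = 0.690), with -0.45 and -0.59 within the prefixes and -0.52 with the prefix in the model (limma unadjusted p = 0.0309, adjusted p = 0.398).

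SLC6A15, a carrier of branched-chain amino acids and proline, was 3.74, 2.83, 5.36 and 6.27 FPKM with norepinephrine and 2.49, 4.29, 2.47 and 3.14 in controls (0.42, SE 0.24, limma adjusted p = 0.725, and 0.19 and 0.056 within the prefixes). SLC6A20, a proline carrier, stood at 1.88, 2.75, 4.16 and 1.63 with norepinephrine and 0.832, 5.13, 0.780 and 0.691 in controls (0.53, SE 0.43, limma adjusted p = 0.777). Control 2 alone lay above all treated animals, so the difference of SLC6A20 was -0.85 within prefix 09 and 1.09 within prefix 10. SLC6A14, a broad neutral and cationic carrier, had a mean of 0.820 FPKM and was not tested. It ranged from 0.0944 to 0.958 with norepinephrine and from 0.817 to 1.26 in controls, so its highest treated animal reached into the control range.

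The remaining members under the limit reached at most 0.373 FPKM (SLC38A8), 0.140 (SLC36A3), 0.774 (SLC6A16) and 0.442 (SLC6A19) in any animal. SLC7A6OS, the row that is no transporter, averaged 44.0 ± 5.04 FPKM with norepinephrine and 46.4 ± 5.60 without it.

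Within the number prefixes, 6 transporters had lower means with norepinephrine in both prefixes and in the pooled groups: SLC7A7, SLC7A8, SLC38A2, SLC38A7, SLC38A10 and SLC6A17. Another 13 were higher in all 3, among them SLC38A1, SLC38A4, SLC38A5, SLC38A11, SLC7A11 and SLC43A2. For 9 of the 29 the sign differed between prefixes, and SLC3A2 was lower in both prefixes but higher when pooled. The same counts over all tested genes are not given here, so none of them is read as particular to transporters. Each prefix holds a single animal of one group, so these values carry no test of their own, and 0 of 29 transporters passed the test of a difference between prefixes in the effect of treatment (limma interaction), where 0.121% of all tested genes did.

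**Figure D5:**
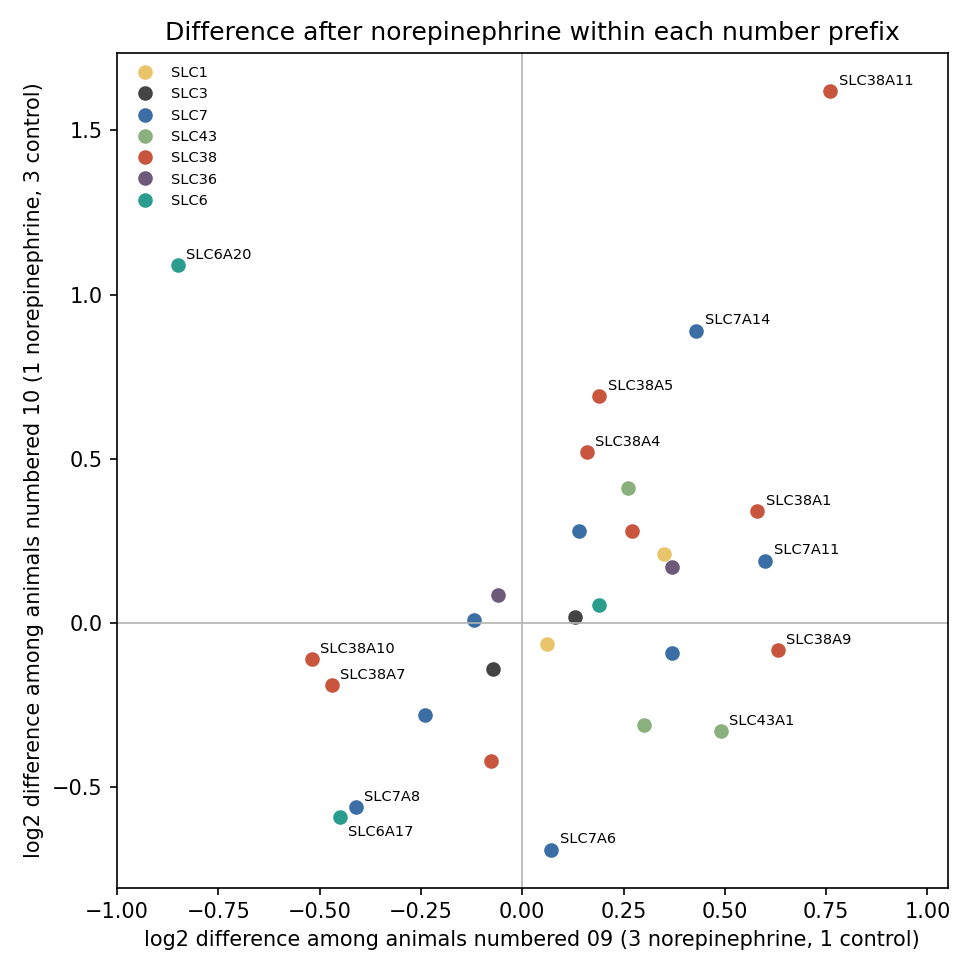
Difference in log2(FPKM + 1), norepinephrine minus control, of the 29 transporters among animals numbered 09 (x axis) and 10 (y axis), coloured by family. SLC7A8 and SLC6A17 lie together at the lower left, SLC38A11 at the upper right, and SLC6A20 at the upper left with opposite signs.

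Other genes that handle amino acids were read from lists beside the transporters, and none passed the test after adjustment (limma, 0 of 14, 31, 27 and 18 tested genes in the order given here). Among other amino acid carriers, 10 of 14 had higher means (median 0.088), and 6 with equal library totals, the scaling under which 30.4% of all genes were higher in place of 52.6%. The most abundant were the mitochondrial carriers SLC25A39, known for glutathione, at 228.5 ± 50.7 FPKM with norepinephrine against 191.3 ± 55.3, and SLC25A22, a glutamate carrier, at 57.1 ± 4.88 and 56.3 ± 4.72. SLC32A1, which loads GABA and glycine into vesicles (chromosome 13, 67145510 to 67149338), stood at 0.144, 0.0923, 0.461 and 0.399 FPKM in controls 1 to 4 and at 0.556, 6.53, 0.992 and 3.43 in norepinephrine animals 1 to 4. All treated animals lay above all controls (difference 1.33, SE 0.46, limma adjusted p = 0.576, and 1.13 and 2.50 within prefixes 09 and 10). SLC32A1 passed the abundance limit only through the treated group, so its difference was favoured by the limit.

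The groups also did not overlap for 2 other carriers, SLC15A4 and SLC25A29, where 4.23% of all tested genes had groups without overlap. SLC15A4, a lysosomal histidine and peptide carrier, was 25.9, 21.9, 24.2 and 31.2 FPKM with norepinephrine and 16.7, 20.7, 20.3 and 18.1 in controls (0.42, SE 0.14, limma adjusted p = 0.574, and 0.37 and 0.25 within the prefixes). SLC25A29, a mitochondrial carrier of basic amino acids, stood at 2.82, 1.99, 3.02 and 1.81 and at 1.64, 1.12, 1.40 and 1.28 (0.52, SE 0.19, limma adjusted p = 0.597, and 0.73 and 0.30 within the prefixes).

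Genes of amino acid sensing and mTORC1 had higher means in 15 of 31 (median -0.00024), in 7 of 31 with equal library totals (median -0.15) and in 12 of 31 with the prefix in the model. ATF4, the transcription factor of the amino acid response, had means of 1148 ± 281.5 FPKM after norepinephrine and 809.8 ± 326.0 in controls, with a difference of -0.065 within prefix 09 and 0.39 within prefix 10. RHEB, the activator of mTORC1, stood at 249.1 ± 47.6 and 219.5 ± 38.1. FNIP2, a partner of folliculin, stood at 27.0 ± 5.78 and 19.8 ± 1.69 (0.41, SE 0.17, limma adjusted p = 0.660, and 0.54 and 0.32 within the prefixes).

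Among enzymes of amino acid metabolism, 17 of 27 had higher means (median 0.057), and 11 of 27 with equal library totals, led in abundance by GOT2 at 116.7 ± 26.5 and 100.8 ± 16.1 FPKM and PYCR1 at 118.1 ± 18.4 and 97.0 ± 26.8. PSAT1, of serine synthesis, stood at 51.0, 41.0, 93.2 and 45.5 with norepinephrine and 22.3, 35.9, 26.2 and 40.8 in controls, without overlap (0.82, SE 0.28, limma adjusted p = 0.574, and 0.73 and 0.50 within the prefixes). ASNS, asparagine synthetase, stood at 124.1 ± 22.2 and 84.0 ± 20.1 (0.57, SE 0.20, limma adjusted p = 0.576, and 0.38 and 0.69 within the prefixes). Cytosolic aminoacyl-tRNA synthetases had higher means in 17 of 18 (median 0.12), a count that was 7 of 18 with equal library totals, where all genes went from 52.6% to 30.4%, and 12 of 18 once the prefix was modelled. SARS stood at 366.7 ± 25.3 and 320.8 ± 30.3, NARS at 206.0 ± 31.3 and 194.3 ± 38.1, and GARS at 183.7 ± 24.7 and 145.0 ± 20.9 FPKM (0.34, SE 0.15, limma adjusted p = 0.666, and 0.17 and 0.24 within the prefixes).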

How the data were processed

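The authors deposited 1 table with an FPKM value per gene and animal, per the file headers, and no counts. The submitters' processing notes name TopHat2 2.0.1, Cufflinks 2.1.1, Cuffdiff and the build Oar_v3.1. No source used here gives the annotation, strand or filters. Each column was tied to its animal through the animal number in its header (0 columns left out). Loci are those of the table, and 1 was added to each start so that positions count from 1.

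Depth is known only in part: steps of 1 fragment in low values gave a depth of 1.08 for control 4 and 1.01 for norepinephrine 2 relative to control 1, and no counting interval was computed.

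Values were analysed as log2(FPKM + 1), which understates changes of low genes. The 13252 rows whose mean over 8 animals reached 1 FPKM entered limma 3.58.1 (R 4.3.3, eBayes, variance trended on intensity). Tests were two-sided, Benjamini-Hochberg adjustment covered all tested genes, and the threshold was 0.05. The fit was tested on simulated data. Each replicate is a separate fetus. Alternatives changed the pseudocount (0.1), the filter (none, or 5), scaling, covariates, variance trend, duplicate rows or 1 animal. Sex was in no model. No transporter had a duplicate row.

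Members with full values are the 3 most abundant of each family, SLC3A1, SLC3A2, and those with an unadjusted p under 0.05 or groups that do not overlap. From each other list the 2 most abundant genes and up to 3 with the lowest unadjusted p under 0.05 are named. Members and lists were chosen with earlier results of these data known. The 9 marker lists (alpha, beta, delta, acinar, duct, endothelial, mesenchymal, leukocyte, red blood cell) describe cell content. Their genes were in the fit over all genes, and no test was made of a list.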

Additional observations from a re-analysis of the deposited data

Results flagged for a closer look

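In a group of 4 animals, a value was singled out where its gap to the nearest other animal divided by the group's range exceeded Dixon's 95% critical value. Of 77 groups checked 6 met this, and chance gives about 1 in 20. Control 2 held the highest SLC6A20 value (5.13 FPKM), the lowest SLC38A9 value (3.55 FPKM) and SLC36A3 listed at 0. Control 2 is the only control numbered 09 and the only control given as female, so prefix and sex cannot be told apart among the controls. Between prefixes (10 minus 09, limma with treatment in the model) SLC38A9 differed by 0.54 (adjusted p = 0.0776) and SLC6A20 by -0.83 (adjusted p = 0.221), neither past the threshold, and SLC36A3 was under the abundance limit. Control 4 held the highest SLC7A6 value (10.3 FPKM) and control 1 the highest SLC38A8 value (0.373 FPKM). SLC1A6 was above 0 only in norepinephrine 3 (0.0187 FPKM).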

How the results depend on the processing

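SLC7A8 kept its lower mean in all 17 alternatives (-0.83 to -0.48), with an unadjusted limma p under 0.05 in each and adjusted p from 0.196 to 0.999. SLC38A5 kept its higher mean (0.40 to 0.66), with an unadjusted p under 0.05 in 15 of 17. No transporter passed after adjustment in any alternative. Over all genes the count past the threshold was 0, and it was 1 with equal library totals, 1 with the prefix as a covariate and 0 to 2 when 1 animal was left out. Transporters with an unadjusted p under 0.05 numbered 4, and 2 to 6 when 1 animal was left out (2 without control 3 or without norepinephrine 4).

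The replicate numbers belong to different animals. With the number as a replicate block 2 transporters had an unadjusted p under 0.05, and over all genes 646 in place of 975. Deviations of same-numbered animals correlated at -0.156, -0.381, -0.0344 and 0.0932.

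The median over all transporters was 0.053 with equal library totals, and the SLC6 median was -0.38 with a mean FPKM of at least 5, where SLC6A17 alone of that family remained. Signs turned for 12 of 29 transporters, none past the threshold, and the cause was not tested. With equal library totals the difference was -0.042 for SLC1A4, -0.098 for SLC3A1, -0.044 for SLC7A11, -0.14 for SLC38A9 and -0.055 for SLC36A4, and with median-of-ratios scaling -0.017 for SLC38A9. With the prefix it was -0.0019 for SLC1A5, -0.10 for SLC3A2, -0.056 for SLC7A10, -0.0089 for SLC43A3 and 0.012 for SLC36A1. Leaving out 1 animal, differences ran from -0.0042 to 0.16 for SLC1A4, -0.095 to 0.10 for SLC3A1, -0.16 to 0.12 for SLC7A7, -0.11 to 0.28 for SLC7A11, -0.14 to 0.48 for SLC7A14, -0.22 to 0.099 for SLC38A9 and -0.021 to 0.21 for SLC36A4.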
